A study of Mus musculus with 18 samples.

Results

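The loci of the mouse genes Prkce, Nfatc2, Hivep3 and Arhgap26 were followed through 6 lists of accessible chromatin from blood stem and progenitor cells. An accessible region belonged to a locus when the summit of at least 1 of its peaks lay in the gene body or within 50 kb of it. The 4 loci held 225 of the 94178 regions that the lists gave when overlapping peaks of all lists were merged. The genes were chosen by their region counts, high in knockout HSC and in wild-type HPC beside wild-type HSC, so these counts are given as descriptions and support nothing.

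ATAC-seq, in which the Tn5 transposase cuts open chromatin, was carried out on 18 samples of mouse cells labelled HSC and HPC, read here as haematopoietic stem and progenitor cells. The mice carried or lacked a conditional deletion of Kmt2c, which encodes a histone H3 lysine methyltransferase. Untreated mice of 8 weeks gave 2 samples of wild-type HSC, 4 of wild-type HPC, and 2 each of HSC and HPC from Kmt2c f/f mice with Vav-Cre, called knockout (Kmt2c -/- in the labels). Wild-type mice of 16 weeks gave 4 samples of HSC after 3 rounds of 5-fluorouracil at 150 mg/kg, 3 weeks apart, and 4 after PBS on the same schedule, called vehicle. The drug kills dividing cells. Vav-Cre acts in blood cells of all lineages, so the deletion was not limited to HSC. The labels name no sorting markers, so how pure the HSC and HPC were is not known from them.

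The 4 genes code for signalling proteins of unlike kinds. Prkce encodes protein kinase C epsilon, a serine/threonine kinase that diacylglycerol activates without calcium. Nfatc2 encodes a transcription factor that enters the nucleus after dephosphorylation by calcineurin and is best known from activated lymphocytes. Hivep3 encodes a large zinc finger protein, also called Schnurri-3, that binds kappa-B-like DNA motifs. Arhgap26, also called GRAF, encodes a GTPase-activating protein, a kind of protein that switches small GTPases off.

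Nfatc2 and Hivep3, 2 of the 4 genes, were matched in RefSeq's promoter table for GRCm38.p6. Their 250 bases before an annotated start are shown because the Nfatc2 starts lay in regions found in unlike numbers of lists. The Hivep3 start shown lies inside the gene, and its sequence lay in no region. The lower end of Hivep3, at 119733759, had a region in all 6 lists. Capitals mark the ETS motif AGGAAGT. Both Nfatc2 sequences are read from the minus strand and the Hivep3 sequence from the plus strand, 5′ to 3′.
Nfatc2, outer start, chr2:168601658-168601907: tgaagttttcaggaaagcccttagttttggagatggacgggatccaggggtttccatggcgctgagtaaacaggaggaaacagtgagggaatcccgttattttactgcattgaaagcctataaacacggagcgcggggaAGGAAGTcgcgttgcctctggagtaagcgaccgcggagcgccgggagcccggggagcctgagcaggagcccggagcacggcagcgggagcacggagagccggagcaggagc
Nfatc2, inner start, chr2:168590366-168590615: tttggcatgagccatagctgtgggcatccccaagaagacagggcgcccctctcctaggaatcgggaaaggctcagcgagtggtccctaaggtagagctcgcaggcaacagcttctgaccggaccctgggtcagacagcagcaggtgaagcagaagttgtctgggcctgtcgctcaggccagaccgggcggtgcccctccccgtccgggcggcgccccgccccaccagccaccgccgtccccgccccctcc
Hivep3, chr4:119814428-119814677: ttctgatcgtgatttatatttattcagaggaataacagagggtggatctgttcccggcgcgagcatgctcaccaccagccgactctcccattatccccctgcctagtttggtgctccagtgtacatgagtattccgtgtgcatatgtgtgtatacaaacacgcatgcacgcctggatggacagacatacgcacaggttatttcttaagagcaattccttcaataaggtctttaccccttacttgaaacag
The outer start of Nfatc2, at position 168601657, fell in an accessible region of the vehicle HSC list alone. The inner start, at position 168590365, fell in a region found in all 6 lists. The Hivep3 sequence overlapped no region, and the nearest lay 995 bp away. GC content was 59.6% in the outer and 67.6% in the inner Nfatc2 sequence and 46.4% in Hivep3, against a median of 52.4% over 32851 promoters. The outer and inner Nfatc2 sequences held 19 and 16 CpG dinucleotides and Hivep3 held 9, against a median of 6.

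These sequences were searched on both strands for 8 motifs. They were AGATAA of the GATA factors, AGGAAGT of the ETS factors, TGTGGTT of RUNX, TGANTCA of AP-1, TTGCNNAA of C/EBP, GGAAAA of NFAT, the motif of NF-kB by its name, and the E-box CAGCTG. In the same order they occur in 9.99%, 7.69%, 4.40%, 6.75%, 9.56%, 20.4%, 0.356% and 13.0% of the promoters in the table. The single match was the ETS motif 111 bases before the outer Nfatc2 start, and it overlapped no other motif. No match means only that these letters are not in these windows.

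Each group has 1 peak list, which its 2 to 4 samples share, so there is no spread between samples, no test of a difference was possible, and the intervals given for shares cover counting error over regions alone. The lists held 56976 to 92813 peaks at 8 weeks, with the fewest in wild-type HSC, and 163058 (vehicle) and 146019 (5-fluorouracil) at 16 weeks. Longer lists hold more regions, and read depth is unknown. The 4 loci took 0.216% to 0.258% of the regions of each list. Strength is given as the authors' fold enrichment of a peak and as the percentile of its −log10 p among the peaks of its own list. Ranks from lists of unlike length show no change. In bulk samples, fewer cells with an open region and less opening per cell cannot be told apart.

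As a check of the labels, 8 to 10 of 10 stem cell marker genes had a region within 1 kb of a gene end in each list. Of 10 progenitor markers, 5 had one in each of the 8-week HSC lists, 7 in both HPC lists, 8 in vehicle HSC and 7 in 5-fluorouracil HSC. Markers of other cells also had such regions, with 3 or 4 of 8 T and NK cell genes, 1 to 4 of 6 B cell genes, 1 to 3 of 6 macrophage genes and 2 to 4 of 6 erythroid genes. The part of these cells in the results below was not tested.

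Prkce is gene 18754 and lies at 86167785 to 86657919 on chromosome 17 in mm10, also called GRCm38. It had 61 regions, of which 53 were in the gene body and 8 in the flanks. Wild-type HSC held 25, knockout HSC 35, wild-type HPC 45, knockout HPC 35, vehicle HSC 49 and 5-fluorouracil HSC 40. Wild-type HSC thus had the fewest and vehicle HSC the most, and 21 regions were in every list. The region of highest −log10 p in each of the 6 lists was the same, at 86187715 to 86188263, inside the gene. Its fold enrichment was 21.5 (wild-type), 22.8 (knockout), 17.2 (vehicle) and 17.998 (5-fluorouracil) in the HSC lists and 21.2 (wild-type) and 19.5 (knockout) in the HPC lists. Its rank by −log10 p was 1072, 1062, 1672 and 1467 in the HSC lists and 1899 and 2594 in the HPC lists, in that order. Its percentile was 96.3 to 99.0 by −log10 p and 80.4 to 89.9 by fold enrichment. By fold enrichment other Prkce regions led, among them one at 86483864 to 86484785 with 28.2 in wild-type and 29.5 in knockout HSC. The lower gene end had a region, 86166712 to 86168316, in 5 lists and not in knockout HPC, with fold enrichments of 5.24 to 7.85. No region was found at the other end.

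A Prkce region at 86277802 to 86278605 set the cell types apart more than any other region shared by all lists at the 4 loci. Its fold enrichment was 27.6 in wild-type HPC and 25.6 in knockout HPC. The HSC lists gave 11.6 (wild-type), 13.8 (knockout), 14.4 (vehicle) and 14.5 (5-fluorouracil). Both HPC lists were above all 4 HSC lists, although the 16-week lists have lower fold enrichments in general, with a median of 6.10 and 6.15 against 10.7 to 11.9 in the 8-week lists. Another Prkce region, at 86185487 to 86186077, was in all 4 HSC lists and in neither HPC list. There the fold enrichment was 6.07 (wild-type), 6.18 (knockout), 9.19 (vehicle) and 9.50 (5-fluorouracil).

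Nfatc2 is gene 18019, on the minus strand at 168476410 to 168601657 of chromosome 2. It is the shortest of the 4 genes, with 32 regions, 20 in the body and 12 in the flanks. Wild-type HSC held 11, knockout HSC 18, wild-type HPC 25, knockout HPC 19, vehicle HSC 26 and 5-fluorouracil HSC 24, and 9 regions were in every list. By both −log10 p and fold enrichment a region at 168516432 to 168517248 led the locus in all 6 lists, with 29.8 (wild-type), 34.5 (knockout), 29.5 (vehicle) and 30.2 (5-fluorouracil) in the HSC lists and 34.4 (wild-type) and 33.1 (knockout) in the HPC lists. That put it in the 97.6th to 99.6th percentile of its list by fold.

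The 2 Nfatc2 starts shown above lay in regions found in unlike numbers of lists. The region over the outer start, 168601212 to 168602101, had a fold enrichment of 3.87 in vehicle HSC and no peak in the other 5 lists. The region over the inner start, 168588880 to 168591004, is 2125 bp wide. Its strongest peak had its summit between 168589254 and 168589271 in the 6 lists, away from the start at 168590365. That peak's fold enrichment was 18.2 (wild-type), 18.2 (knockout), 14.3 (vehicle) and 14.4 (5-fluorouracil) in the HSC lists and 12.5 (wild-type) and 14.4 (knockout) in the HPC lists. These values do not give the signal at the inner start itself. The inner start thus lay in a region of all 6 lists, and the outer start in a region of vehicle HSC alone. Inside the gene, a region at 168562918 to 168563829 was in every list but wild-type HSC, with fold enrichments of 12.2 to 14.3.

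Hivep3 is gene 16656, on the plus strand at 119733759 to 120138045 of chromosome 4. It had 57 regions, 52 in the body and 5 in the flanks. Wild-type HSC held 25, knockout HSC 34, wild-type HPC 44, knockout HPC 37, vehicle HSC 49 and 5-fluorouracil HSC 41, and 19 regions were in every list. The region of highest −log10 p in all 6 lists, 119812701 to 119813433, lies 995 bp before the promoter sequence shown above, whose start at 119814678 is inside the gene. Its fold enrichment was 33.6 (wild-type), 29.8 (knockout), 24.1 (vehicle) and 26.3 (5-fluorouracil) in the HSC lists and 30.5 (wild-type) and 29.0 (knockout) in the HPC lists. It ranked 97th by −log10 p among the peaks of wild-type HPC and 376th in wild-type HSC. The lower gene end had a region in all 6 lists with fold enrichments of 8.22 to 12.4, and the upper end had none.

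Of the 5 regions found in the 4 HSC lists alone, one of Hivep3 had the highest fold enrichment in each HSC list but vehicle, where a Prkce region had 20.9. The Hivep3 region at 119894861 to 119895640 had fold enrichments of 18.6 (wild-type), 21.1 (knockout), 16.9 (vehicle) and 16.9 (5-fluorouracil) in the HSC lists, and no peak in either HPC list. A weaker region at 119989532 to 119990013 was in the 2 HPC lists alone, with 10.998 in wild-type and 8.85 in knockout HPC.

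Arhgap26 is gene 71302, at 38601617 to 39376285 of chromosome 18, and is the longest of the 4 genes. It had 75 regions, 64 in the body and 11 in the flanks. Wild-type HSC held 23, knockout HSC 33, wild-type HPC 50, knockout HPC 40, vehicle HSC 61 and 5-fluorouracil HSC 57, and 15 regions were in every list. The gene body of Arhgap26 also contains Fgf1, which encodes a fibroblast growth factor, and the predicted gene Gm5820. Of the 75 regions, 11 lay in the body of Fgf1 and 12 in that of Gm5820, so which gene they belong to is uncertain. A further 5 lay in Spry4, a gene for an inhibitor of receptor tyrosine kinase signalling whose nearest end is 270 bp away.

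The strongest Arhgap26 region by fold enrichment in every list lies at 38712939 to 38713806. Its fold enrichment was 31.7 (wild-type), 31.3 (knockout), 30.0 (vehicle) and 30.9 (5-fluorouracil) in the HSC lists and 34.0 (wild-type) and 33.6 (knockout) in the HPC lists. By −log10 p a second region, at 38992585 to 38994176, led in knockout, vehicle and 5-fluorouracil HSC. The region at the lower gene end, 38600099 to 38601810, was absent from wild-type HSC and had fold enrichments of 5.37 to 7.51 in the other 5 lists. It also covers the end of Spry4. A region at 39185557 to 39186085 was in the HPC lists alone, with 22.4 in wild-type and 22.7 in knockout HPC. No HSC list had a peak there.

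The plot of region counts by list shows these numbers for each gene.

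**Figure D1:**
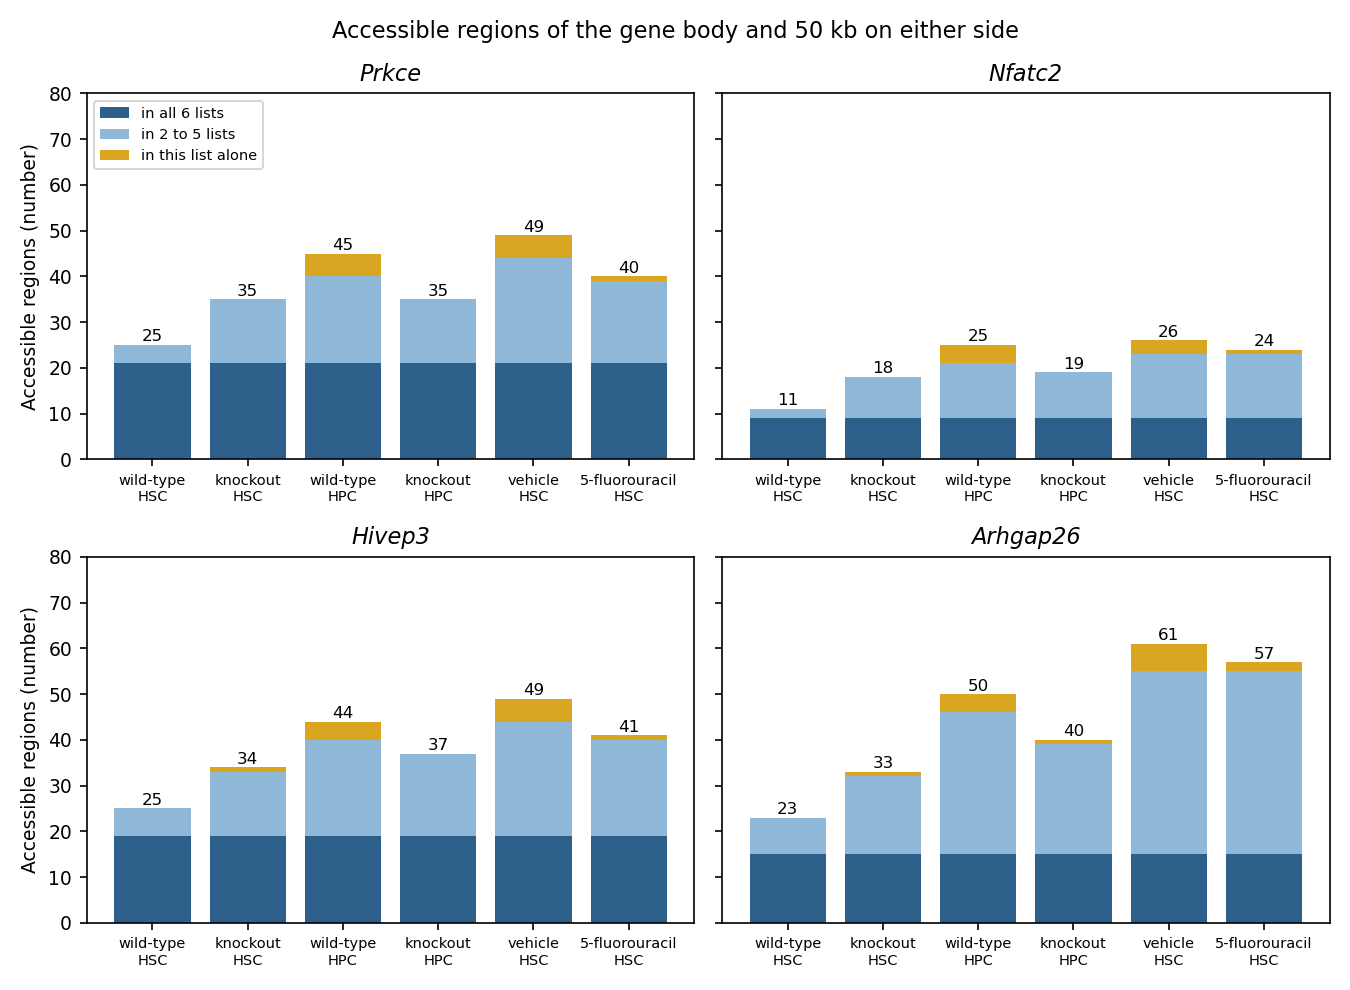
Number of accessible regions (vertical axis) at each of the 4 loci in each of the 6 peak lists (horizontal axis), split into regions in all 6 lists, in 2 to 5 lists, and in that list alone. Wild-type HSC has the fewest regions at every locus, from 11 at Nfatc2 to 25 at Prkce and Hivep3, and vehicle HSC has the most, from 26 at Nfatc2 to 61 at Arhgap26.

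By number of regions Arhgap26 ranked 3, Prkce 6, Hivep3 9 and Nfatc2 160 among 21887 protein-coding genes. Their density was less extreme than their number of regions. Per 100 kb of window, Nfatc2 had 14.2 regions, Hivep3 11.3, Prkce 10.3 and Arhgap26 8.57, against a median of 6.19 over all genes. Their density was higher than in 92.2%, 81.7%, 76.6% and 66.1% of genes in that order. Among the 2429 genes of at least 100 kb, whose median was 4.33, it was higher than in 98.8%, 94.2%, 91.7% and 83.6%. Among long genes Nfatc2, Hivep3 and Prkce thus stood high, and Arhgap26 less so. The genes were chosen by their region counts, so a high standing was in part given beforehand.

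**Figure D2:**
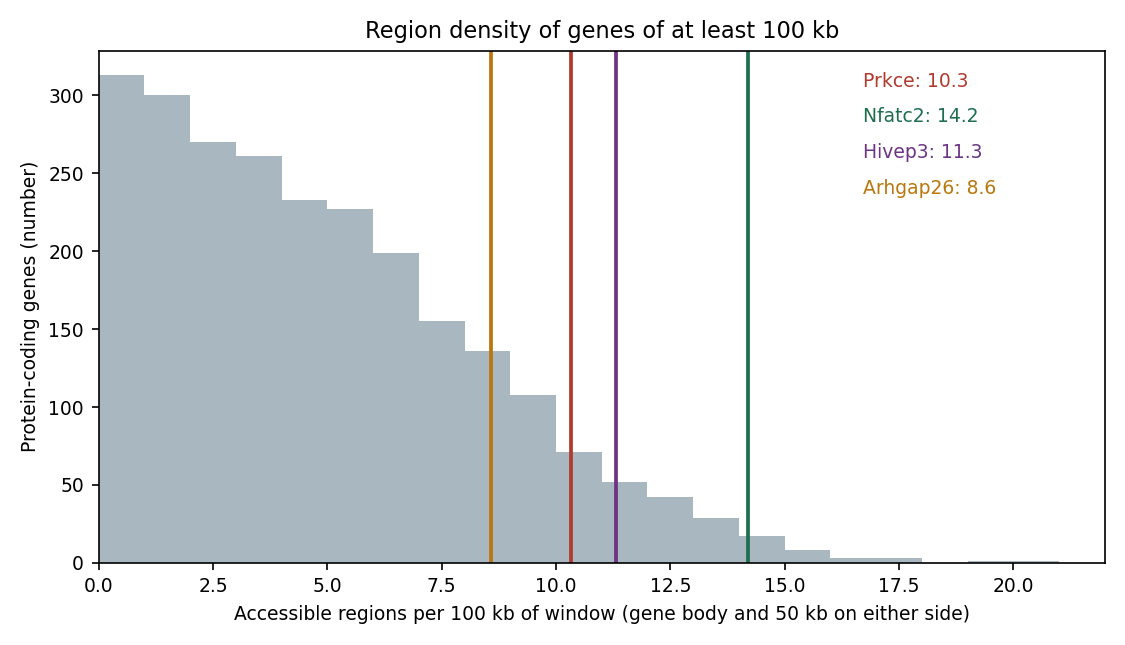
Histogram of protein-coding genes of at least 100 kb by the number of accessible regions per 100 kb of window (horizontal axis), with lines at the 4 genes. Nfatc2 lies far to the right at 14.2 and Arhgap26 nearest the middle at 8.57.

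The regions were spread unevenly along the genes. When each gene body was split into 4 equal stretches, those of Prkce held 22, 16, 11 and 3 region centres from the lower end. In Nfatc2 the stretches held 3, 2, 6 and 9 from the lower end, so most regions lay toward the starts of this minus-strand gene. In Hivep3 they held 8, 14, 15 and 14, and in Arhgap26 6, 21, 21 and 15. Of the Nfatc2 regions in knockout HSC and not in wild-type HSC, 4 lay in the third stretch and 1 in the fourth. In Arhgap26, 0, 3, 5 and 5 of such regions lay in the stretches from the lower end. The median width of the 225 regions was 618 bp, against 612 bp over all regions.

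**Figure D3:**
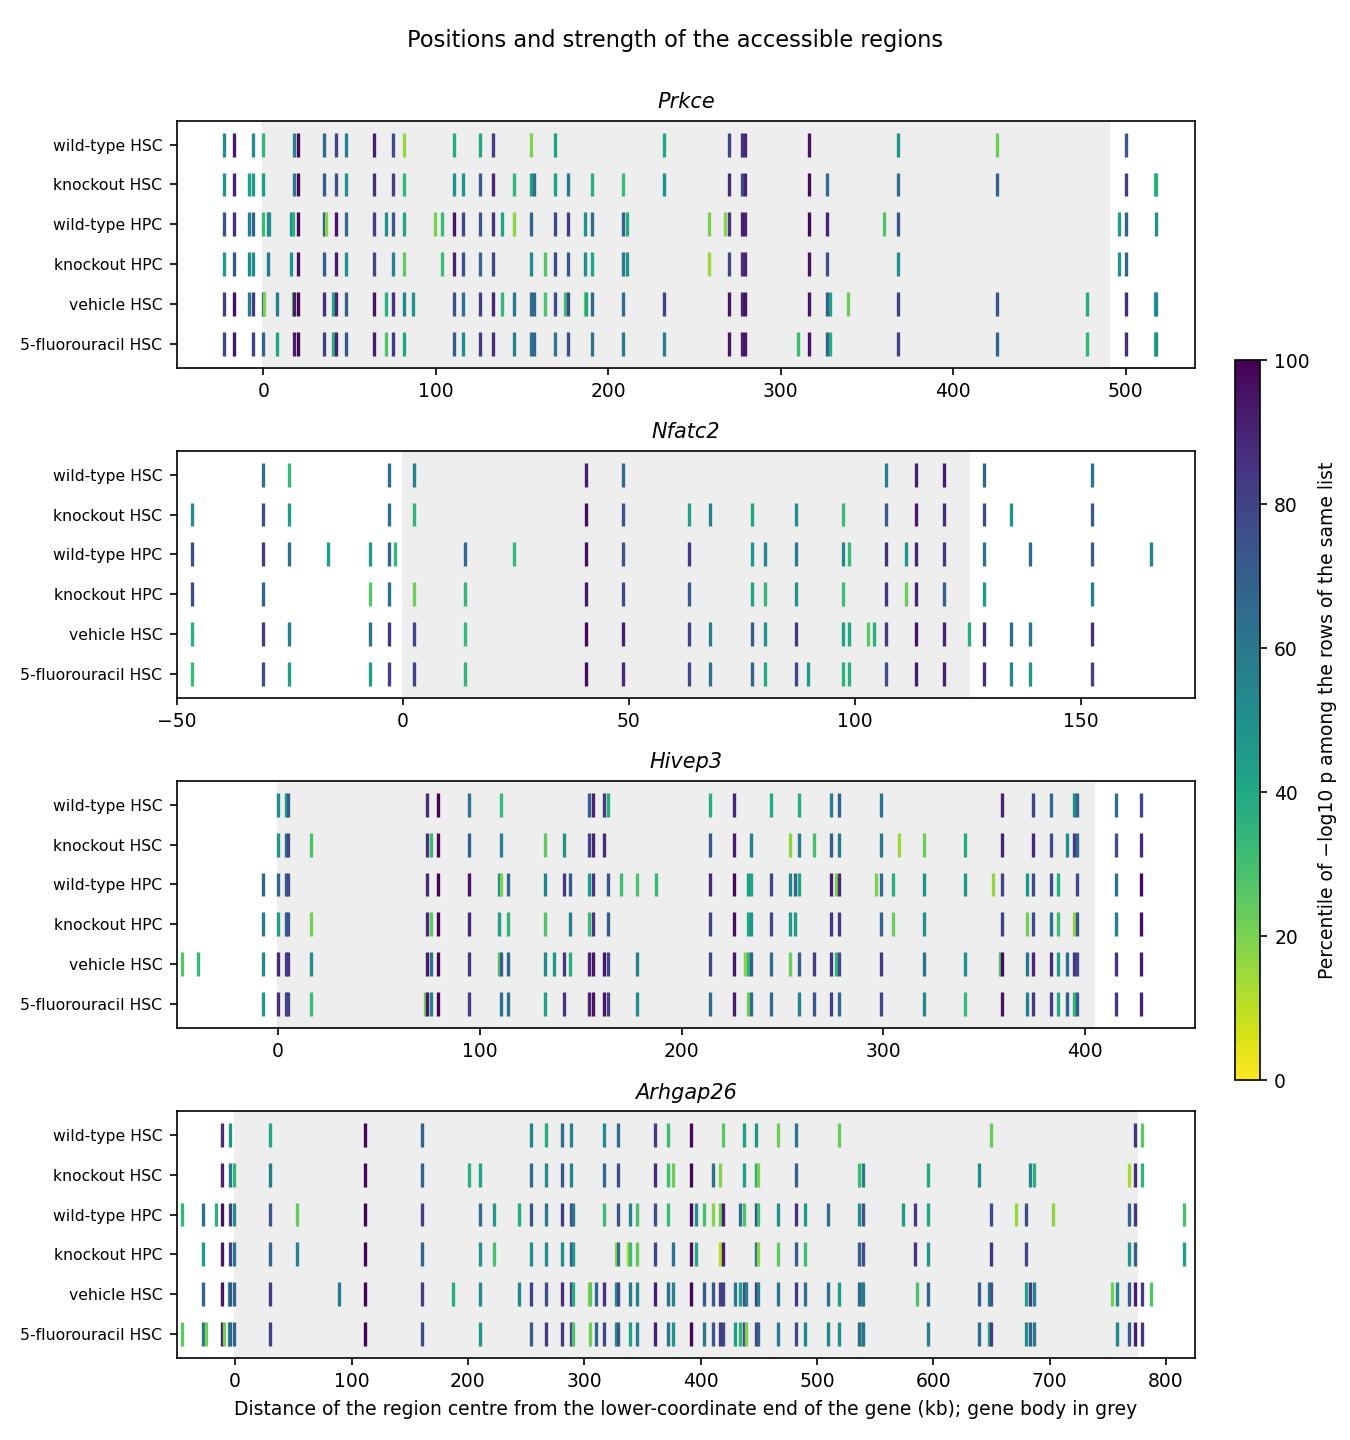
Position of each accessible region (horizontal axis, kb from the lower-coordinate end of the gene, gene body in grey) in each peak list (rows), coloured by the percentile of its −log10 p within that list, dark for strong. The 22 Prkce regions of the lowest stretch stand against 3 in the highest, and the wild-type HSC rows have gaps where other lists have regions.

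At Nfatc2, Hivep3 and Arhgap26 some regions lay close to the limit of 50 kb. At Prkce the outermost regions lay 23.1 kb below and 27.6 kb above the gene, and the next ones outside lay 89.5 and 65.0 kb away. At Nfatc2 the last regions inside lay 46.65 kb below and 40.3 kb above, and the first outside 52.7 and 50.1 kb. At Hivep3 the last inside lay 47.4 and 23.7 kb away and the first outside 51.0 and 50.4 kb. At Arhgap26 the last inside lay 45.7 and 40.65 kb away and the first outside 56.7 and 78.7 kb.

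Knockout HSC held 42 regions at the 4 loci that wild-type HSC lacked, 35.0% of its 120 (95% Wilson interval 27.1 to 43.9%), against 25.3% of all knockout HSC regions. The reverse share was 6 of 84, or 7.14% (3.31 to 14.7%), against 9.46% of all. Prkce had 10 regions in knockout HSC alone of this pair and 0 in wild-type HSC alone, Nfatc2 7 and 0, Hivep3 11 and 2, and Arhgap26 14 and 4. All 4 genes thus had more on the knockout side, as did 55.8% of protein-coding genes with a region in either list, while a net of 7 or more was found in 0.338% of them. This contrast chose the genes, so nothing is read from that share. With each list limited to its 56976 strongest peaks, the share of knockout HSC regions absent from wild-type HSC was 33.9%, against 24.5% of all. The net counts were then 10 at Prkce, 7 at Nfatc2, 8 at Hivep3 and 9 at Arhgap26. When each list was limited to its 40073 strongest regions, a limit chosen after the data were seen, the share was 24.8% against 15.1% of all, and the net counts were 6 at Prkce, 6 at Nfatc2, 2 at Hivep3 and 3 at Arhgap26.

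Nearly all of the 42 regions were present in other lists. Of them 28 were in wild-type HPC, or 66.7%, the same as the 66.7% of all such regions. In knockout HPC there were 26, or 61.9% (46.8 to 75.0%), against 51.4% of all. The vehicle HSC list, which is longer and from wild-type mice, held 40 of them, and 5-fluorouracil HSC held 38, that is 95.2% and 90.5% against 92.9% and 84.7% of all. Most of the knockout regions absent from wild-type HSC at Prkce, Nfatc2, Hivep3 and Arhgap26 were thus also in a list of wild-type HSC of older mice. The same held for most such regions of the whole lists, so it was not particular to the 4 loci. As a set the 42 regions were weak, with percentiles of 13.1 to 65.1 and a median of 39.0 in knockout HSC (34.5 over all such regions). The shared regions of the 4 loci had a median of 72.2, and all knockout HSC regions had one of 63.0. Regions of knockout HSC found in no other list numbered 2, or 0.889% of the 225 against 0.310% of all regions, one at Arhgap26 at 38802286 to 38802597 with a fold enrichment of 12.7 and one at Hivep3 at 120041545 to 120041819 with 7.68. No region of the 4 loci was in the 2 knockout lists and nowhere else.

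In HPC the order of the genotypes was turned around. Wild-type HPC held 41 regions that knockout HPC lacked, 25% of 164 (19.0 to 32.1%), against 25.2% of all, and knockout HPC held 8 of 131 that wild-type HPC lacked, 6.11% against 6.72%. Both shares are near those of the whole lists. Prkce had 11 wild-type and 1 knockout region, Nfatc2 7 and 1, Hivep3 10 and 3, and Arhgap26 13 and 3. More on the wild-type side was found in 67.0% of genes, and a net of 6 or more in 1.9%. With lists of equal numbers of regions the direction was lost at 3 genes, with a net for wild-type of −4 at Prkce, 5 at Nfatc2, −1 at Hivep3 and −4 at Arhgap26. Of the 41 regions, 7 were in wild-type HSC (17.1% against 20.3% of all such regions), 12 in knockout HSC (29.3% against 29.3%), 23 in vehicle HSC (56.1% against 67.1%) and 20 in 5-fluorouracil HSC (48.8% against 59.2%). The wild-type HPC list pools 4 samples and the knockout HPC list 2, and genotype and the number of samples cannot be told apart here.

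Vehicle HSC held 29 regions that 5-fluorouracil HSC lacked, 15.7% of 185 (11.1 to 21.6%), against 16.3% of all. The reverse was 6 of 162, or 3.70%, against 5.64%. Prkce had 10 and 1, Nfatc2 3 and 1, Hivep3 9 and 1, and Arhgap26 7 and 3. Genes with more on the vehicle side made up 53.9% of all genes and those with a net of 2 or more 25.4%, so the 4 loci followed the lists as a whole. With lists of equal length the share was 7%, against 7.80% of all. The net counts of 9 at Prkce, 2 at Nfatc2, 8 at Hivep3 and 4 at Arhgap26 became 2, −1, 0 and −1. The vehicle direction was thus lost at 3 of the 4 genes. Of the 29 regions, 0 were in wild-type HSC of 8 weeks, which allows a share of up to 10.3% when 3 counts are taken as the limit of a count of 0 and 11.7% by the Wilson interval, against 4.63% of all such regions. Knockout HSC held 2 of them, wild-type HPC 9 and knockout HPC 6, against 11.8%, 27.7% and 16.8% of all. Arhgap26 and Nfatc2 each had 11.5% of their vehicle regions absent after 5-fluorouracil, and Prkce had 20.4% (11.5 to 33.6%).

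Wild-type HPC held 88 regions that wild-type HSC lacked, 53.7% of 164 (46.0 to 61.1%), against 44.1% of all, and this contrast also served to choose the genes. The reverse was 8 of 84, or 9.52%, against 8.37%. The wild-type HPC list pools 4 samples and the wild-type HSC list 2, so cell type and the number of samples cannot be told apart in this pair. Prkce had 23 HPC and 3 HSC regions, Nfatc2 15 and 1, Hivep3 21 and 2, and Arhgap26 29 and 2. More on the HPC side was found in 82.0% of genes, and a net of 14 or more in 0.313%. Of the 88 regions, 28 were in knockout HSC (31.8% against 28.3% of all such regions), 54 in knockout HPC (61.4% against 54.4%), 56 in vehicle HSC (63.6% against 65.0%) and 48 in 5-fluorouracil HSC (54.5% against 57.6%). With lists of equal numbers of regions the share was 32.3%, against 24.1% of all. The net counts of 20 at Prkce, 14 at Nfatc2, 19 at Hivep3 and 27 at Arhgap26 became 2, 7, 2 and 4. The knockout lists were compared in the same way, although genes chosen for many regions in knockout HSC are not an unselected set for this contrast either. Knockout HPC held 39 of 131 regions that knockout HSC lacked, 29.8% (22.6 to 38.1%) against 27.3% of all, and knockout HSC held 28 of 120 that knockout HPC lacked, 23.3% against 21.2%. Prkce had 8 and 8, Nfatc2 4 and 3, Hivep3 11 and 8, and Arhgap26 16 and 9, where 43.5% of genes had more on the HPC side. These contrasts share lists with the knockout comparison above and are not independent of it.

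Vehicle HSC of 16 weeks held 101 regions that untreated wild-type HSC of 8 weeks lacked, 54.6% of 185 (47.4 to 61.6%), against 51.7% of all. All 84 regions of wild-type HSC were in vehicle HSC, so 0 were missing, which allows a share of up to 3.57% when 3 counts are taken as the limit of a count of 0 and 4.37% by the Wilson interval, against 0.729% of all. Arhgap26 had 38 such regions, Prkce 24, Hivep3 24 and Nfatc2 15, and 93.5% of genes had more on the vehicle side, with a net of 15 or more in 1.12%. With lists of equal length the share was 23%, against 17.4% of all, and the net counts were 3 at Prkce, 2 at Nfatc2, 3 at Hivep3 and 8 at Arhgap26. Age, injections and the number of samples in the list differ together here and cannot be told apart.

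**Figure D4:**
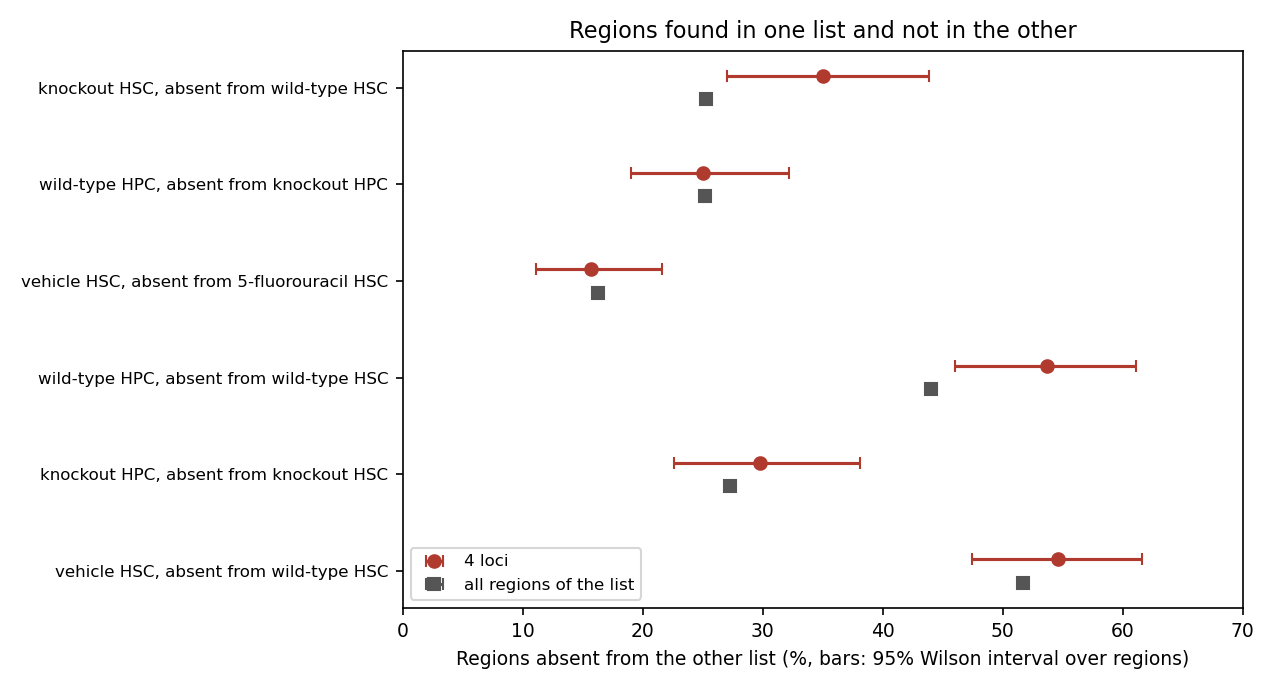
Share of a list's regions that the other list lacks (horizontal axis, percent) in 6 comparisons, for the 4 loci (red, bars are 95% Wilson intervals over regions) and for all regions of the list (grey). The 4 loci stand above all regions for knockout HSC against wild-type HSC (35.0% and 25.3%) and wild-type HPC against wild-type HSC (53.7% and 44.1%), the contrasts used to choose them, and lie near all regions in the others.

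Across all 6 lists, 64 of the 225 regions, or 28.4%, were in every list, against 32.2% of all regions. The next most common pattern was presence in every list but wild-type HSC, with 21 regions or 9.33% against 5.26% of all; Prkce had 5 of these, Nfatc2 5, Hivep3 3 and Arhgap26 8. That pattern is part of what chose the genes. Regions of the 2 HPC lists alone numbered 14, or 6.22% against 4.02%, with 6 at Prkce, 1 at Nfatc2, 2 at Hivep3 and 5 at Arhgap26. Regions of the 2 lists of 16 weeks alone numbered 12, or 5.33% against 10.8%, with 4 at Prkce, 8 at Arhgap26 and 0 at Nfatc2 and Hivep3. Regions of the 4 HSC lists alone numbered 5, or 2.22% against 1.83%, with 3 at Prkce, 1 at Hivep3 and 1 at Arhgap26. Vehicle HSC alone had 19, or 8.44% against 8.74% of all, and wild-type HPC alone had 17, or 7.56% against 4.88%. The regions of wild-type HPC alone and those of the 2 HPC lists alone count toward a contrast that chose the genes. Nothing is read from their higher shares.

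In wild-type HSC, 12 of the 84 regions stood at or above the 90th percentile of −log10 p, against 14.3% of all its regions. In knockout HSC 13 of 120 did (14.2% of all), in wild-type HPC 17 of 164 (14.2%), in knockout HPC 14 of 131 (13.5%), in vehicle HSC 25 of 185 (17.5%) and after 5-fluorouracil 25 of 162 (17.6%). The 4 loci were thus not richer in strong regions than the lists as a whole.

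The strength of the 64 common regions can be compared because they form the same set in every list. Percentiles here are among the 30314 regions found in all 6 lists, a scale added after the data were seen. Both HPC lists were above all 4 HSC lists for 20 of the 64 (31.25%), against 23.0% of all common regions, and below them for 15 (23.4%), against 26.4%. By fold enrichment these counts were 12 and 12, against 18.6% and 20.9% of all. With a gap of over 10 percentile points there were 11 above, or 17.2% against 11.6%, and 6 below, against 9.14%. The Prkce window had 4 of the 11, that of Hivep3 5, Nfatc2 1 and Arhgap26 1. The Arhgap26 region lay in the body of the neighbouring gene Spry4. A Hivep3 region at 120161049 to 120162010 lay in the flank and overlapped the neighbouring gene Edn2. With fold enrichment in place of −log10 p the counts were 5 above and 6 below, so both the 20 and the 11 depend on the measure.

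The Prkce region at 86277802 to 86278605 had the widest gap among the 64. Its percentile was 10.7 (wild-type), 12.4 (knockout), 13.2 (vehicle) and 13.5 (5-fluorouracil) in the HSC lists, against 85.5 in wild-type HPC and 80.9 in knockout HPC. By fold enrichment the 4 HSC lists gave 21.5 to 37.3 and the HPC lists 86.7 and 85.8, so both measures separated the cell types. A Hivep3 region at 119828095 to 119828893 stood at 33.9 to 36.2 in the HSC lists and at 84.2 and 75.1 in wild-type and knockout HPC. A region of the Arhgap26 window at 38597143 to 38597618, in the body of Spry4, stood at 11.7 to 22.8 in the HSC lists. In wild-type and knockout HPC it stood at 52.8 and 59.8. By fold enrichment its percentiles were 2.78 to 7.94 in the HSC lists and 14.3 and 16.5 in the HPC lists. At Nfatc2 a region at 168604503 to 168605335, beyond the outer start, went the other way, with 42.1 to 54.2 in the HSC lists and 19.1 and 14.1 in the HPC lists. By −log10 p Hivep3 held the widest gap in that direction, at 119887493 to 119888055, with 47.6 to 61.8 in HSC and 4.62 and 4.56 in HPC. By fold enrichment this Hivep3 region stood at 18.7 to 26.5 in the HSC lists. In wild-type and knockout HPC it stood at 5.02 and 3.59, a gap of −13.7 points between the nearest lists. By that measure a Prkce region at 86667701 to 86668349 had a wider gap, of −25.4 points.

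**Figure D5:**
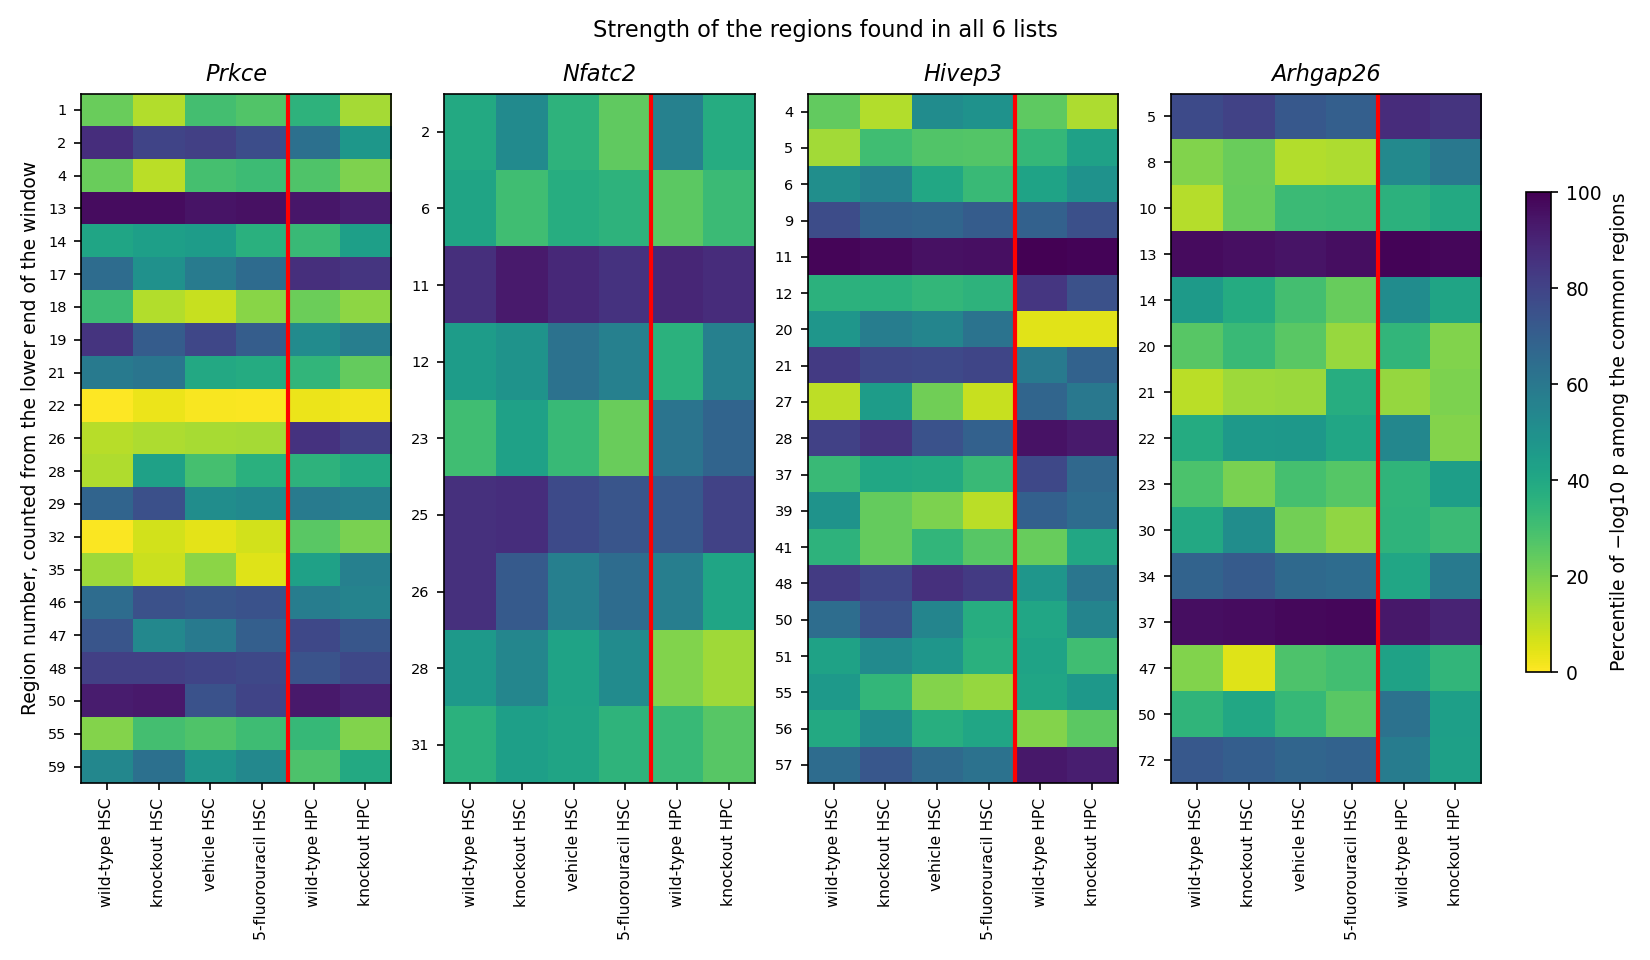
Percentile of −log10 p among the regions common to all lists (colour, dark for strong) for the 64 common regions at the 4 loci, numbered from the lower end of each window (vertical axis), in the 6 lists (horizontal axis, HSC lists left and HPC lists right of the red line). Prkce region 26 changes from light to dark at the line (13.5 or less to 80.9 or more), and Hivep3 region 20 from dark to light.

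Genotypes and treatments were compared at the same 64 regions. Knockout HSC was over 10 points above wild-type HSC at 11 (17.2%) and below at 13 (20.3%), against 16.4% and 16.3% of all. Wild-type HPC was above knockout HPC at 13 (20.3%) and below at 8 (12.5%), against 12.9% and 12.8%. Vehicle HSC was above 5-fluorouracil HSC at 6 (9.38%) and below at 2 (3.12%), against 5.89% and 5.3%. By fold enrichment the counts were 9 above and 13 below for the HSC genotypes. They were 15 above and 15 below for the HPC genotypes, and 8 above and 6 below for the treatments. The lean to one side seen with −log10 p was thus absent by fold for the HPC genotypes and smaller for the treatments. For the HSC genotypes it was not smaller by fold. The widest difference between the HSC genotypes was at a Hivep3 region at 119947271 to 119948188, with 10.1 in wild-type and 44.7 in knockout HSC and fold enrichments of 11.8 and 23.9. In vehicle HSC that region stood at 21.7 and in 5-fluorouracil HSC at 8.30, within or near the range of the 8-week HSC lists. In HPC an Arhgap26 region at 38881753 to 38882571, in the body of Fgf1, stood at 53.7 in wild-type and 18.5 in knockout.

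Genes that act with the proteins of Prkce, Nfatc2 and Hivep3 were counted in the same way for knockout against wild-type HSC, where 55.8% of all genes had more regions on the knockout side. Of 18 genes of the protein kinase C family and its partners, 12 had more regions in knockout HSC alone, 2 in wild-type HSC alone and 4 equal numbers, with a median net of 1. Prkca, for protein kinase C alpha, had 7 and 2, Prkch, for the eta form, 7 and 1, and Plcg2, for the phospholipase that makes diacylglycerol, 5 and 1. Of 19 genes of the NFAT family and calcineurin signalling, 15 had more on the knockout side and 1 fewer, with a median of 2; the inositol trisphosphate receptor genes Itpr3 and Itpr1 had 7 and 1 and 7 and 3, and Nfatc1 had 4 and 0. Of 9 HIVEP and kappa-B genes, 8 had more and 1 fewer, with Nfkb1 at 6 and 1. In HPC, 17, 14 and 8 genes of these lists had more regions on the wild-type side, where 67.0% of all genes did.

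The genes most like the 4 in the share of their regions found in each list were named over the 6 lists, among 1617 genes with at least 20 regions. They were Itpkb, Ptprh and Spon1 for Prkce, at a Euclidean distance of 0.0635 for Itpkb against a median of 0.277. They were Iffo2, Grhl3 and Dgkd for Nfatc2 (0.0622 for Iffo2), Trak1, Slc24a3 and Rfx4 for Hivep3 (0.0438 for Trak1) and Fgr, Msi2 and Gramd1b for Arhgap26 (0.0617 for Fgr). The 4 genes were not each other's nearest, with Hivep3 36th, Nfatc2 39th and Arhgap26 406th from Prkce. Arhgap26 stood 300th from Nfatc2 and 842nd from Hivep3, at a distance of 0.265 against a median of 0.258. Among long genes of the same series, Slc8a1 and Stim1 together had 3 of 29 knockout HSC regions absent from wild-type HSC, 10.3% (3.58 to 26.4%), and Pde4d, Wwox and Gse1 had 15 of 104, 14.4% (8.94 to 22.4%). These lie below the 35.0% of the 4 loci, which were chosen for a high value, and the difference was not tested.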

How the data were processed

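ATAC-seq peaks were deposited as 6 lists, and every sample's labels point to its group's list. The submitters' processing notes name MACS2, Bowtie2 and the build mm10 (GRCm38); no version and no account of the pooling is given in the sources used here. The deposited columns are a score, which was not used, a fold enrichment (a ratio), a −log10 p and the summit's offset, per the peak format.

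Peaks of all lists were merged where they overlapped by at least 1 bp, with Python 3.11.15, pandas 2.3.3, numpy 2.4.6 and matplotlib 3.10.9. A region counts as present in a list that has a peak in it, and its strength is that of its strongest peak by −log10 p. Gene bodies came from RefSeq's GRCm38.p6 table, 21887 protein-coding genes, and motifs and promoters from its promoter table. The procedure was checked on simulated lists. The list of genes related to Arhgap26 is not reported here. The members and gene lists were chosen with earlier results of these data known. Named genes are the 4 members, neighbours in their windows, at most 3 of each related list with the largest net count, and the 3 genes most alike. Named regions lead a list, lie at a gene end or promoter, lead a presence pattern, or, chosen after their values were seen, differ most between the cell types or genotypes. Alternatives were summits joined within 200 bp, the weakest 25% removed, a −log10 p of at least 5, lists of equal length, the gene body alone, nothing within 1 kb, and lists of equal numbers of regions.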

Additional observations from a re-analysis of the deposited data

Results flagged for a closer look

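At each of the 4 genes the knockout lists differed from the wild-type lists in opposite directions in HSC and HPC, a difference that was not tested. Net regions of the knockout in HSC minus those in HPC came to 20 at Prkce (10 and −10), 13 at Nfatc2 (7 and −6), 16 at Hivep3 (9 and −7) and 20 at Arhgap26 (10 and −10). The same pair of directions was found in 38.5% of 18977 protein-coding genes. The HSC contrast served to choose the genes, so its direction was given beforehand and nothing is read from the pair. In both cell types the side with more regions also had the longer list. With lists of equal length, the net for wild-type HPC was 1 at Prkce, 3 at Nfatc2, 0 at Hivep3 and −1 at Arhgap26. With lists of equal numbers of regions, the net for wild-type HPC was 5 at Nfatc2 and −4 at Prkce, −1 at Hivep3 and −4 at Arhgap26.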

How the results depend on the processing

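No paired analysis was possible because each group has 1 pooled list, and for the same reason no replicate could be left out. Lists of equal numbers of regions (40073) were chosen as an alternative after the data were seen, as were the percentiles among common regions. Shares over all regions at the same setting follow in brackets. Limiting each list to its 56976 strongest peaks gave 11.7% (12.7%) for wild-type HPC regions absent from knockout HPC. It gave 7% (7.80%) for vehicle absent from 5-fluorouracil HSC and 44.5% (32.6%) for wild-type HPC absent from wild-type HSC. Vehicle absent from wild-type HSC came to 23% (17.4%), and regions in all 6 lists to 36.3% (41.9%). With equal numbers of regions these were 12.1% (10.6%), 7.14% (6.72%), 32.3% (24.1%), 21.4% (15.6%) and 40.5% (43.9%). Knockout HSC regions absent from wild-type HSC were then 24.8% (15.1%), while lists of equal length gave 33.9% (24.5%). Joining summits within 200 bp gave 32.4% (31.02%) for wild-type absent from knockout HPC. It gave 66.8% (64.6%) for vehicle absent from wild-type HSC and 18.7% (21.6%) in all 6 lists. The net counts per gene changed sign in 8 cases. With lists of equal length they became −1 for Arhgap26 in wild-type against knockout HPC, and −1 for Nfatc2 and −1 for Arhgap26 in vehicle against 5-fluorouracil HSC. With equal numbers of regions they became −4 for Prkce, −1 for Hivep3 and −4 for Arhgap26 in wild-type against knockout HPC, and −4 for Nfatc2 in knockout HPC against knockout HSC, which was −1 with the weakest 25% removed. In both kinds of shortened list fewer regions were compared; the cause was not tested beyond that. A −log10 p of at least 5 left all 24 net counts within 1.5 times of the main ones.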
